A study of Mus musculus with 2 samples.

Results

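The genes of 10 secreted proteins of the healing infarct were followed in cultured mouse cardiac myofibroblasts after knockdown of *Vgll3*. They were *Fn1*, *Postn*, *Tgfbi*, *Tnc*, *Spp1*, *Sparc*, *Thbs1*, *Thbs2*, *Thbs3* and *Comp*, chosen by gene symbol, and all 10 were found among the 24532 genes of the deposited count table. The myofibroblasts came from C57BL/6 mice (substrain C57BL/6J per the methods) 3 days after myocardial infarction, as the adherent, CD45-negative cells of the digested infarct. Infarction was induced in males 8 to 10 weeks of age, and the number of pooled hearts is not given in the sources used here. Both cultures received 12.5 nM siRNA with a lipid reagent, either a control siRNA (siCtrl) or 1 siRNA against *Vgll3* (siVgll3), and RNA was taken after 72 h. Each condition is 1 library, so no value below has a replicate check within these data, and the conditions were not tested against each other. A difference between the cultures that is unrelated to the siRNA cannot be told apart from the knockdown. Outside these libraries, the study reported lower *Postn*, *Col1a1* and *Col1a2* mRNA by qRT-PCR after *Vgll3* knockdown in cardiac myofibroblasts.

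Matricellular proteins are secreted into the matrix but act mainly by binding cell-surface receptors, proteases and growth factors, and not as load-bearing fibres. In the infarcted heart, fibroblasts that become myofibroblasts switch on periostin, tenascin-C, osteopontin and thrombospondins together with the provisional fibronectin matrix on which collagen is later laid down. Many of these proteins bind integrins, and thrombospondin-1 is known as an activator of latent TGF-β.

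The depth was 140815237 reads on genes in siCtrl and 125789276 in siVgll3. Levels are given in TPM, which the authors scaled for gene length and library size, so that they can be compared between genes. M is log2 of the TPM in siVgll3 over that in siCtrl, A is log2 of the mean of both TPM values, and genes with A > 0 were counted as lower at M < −0.5 and as higher at M > 0.5, the threshold of the study on its lower side. Square brackets hold a 95% interval from the 2 read counts (exact, by the Clopper-Pearson method), centred on the TPM ratio. These intervals cover counting error only and compare the 2 libraries. The targeted gene, *Vgll3*, stood at 202 TPM in siCtrl and 84.0 TPM in siVgll3, or 41.6% of the siCtrl level. Of the 13 myofibroblast and fibroblast markers all had A > 0, among them *Acta2* at 3296 TPM in siCtrl and 3866 TPM in siVgll3. Of these 13 markers, 6 were lower, the collagen genes *Col1a1*, *Col1a2* and *Col3a1* among them, and 3 were higher. Over all genes with A > 0, 11.4% were lower and 5.73% higher.

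The matricellular genes did not move together. Periostin, thrombospondins 2 and 3 and *Comp* were lower in siVgll3, while osteopontin and thrombospondin-1 were higher. Fibronectin, SPARC, tenascin-C and TGFBI lay between the thresholds. In numbers, 4 of the 10 genes (40%) had M < −0.5, against 11.4% of the 11754 genes with A > 0, and 2 of the 10 (20%) had M > 0.5, against 5.73%. The 10 genes had been proposed with results of these data known, so these shares describe them and are no test of them. Of the 10, 5 had M below 0 and 5 had M above 0, and the median M was −0.12, against −0.05 for all genes with A > 0. The spread within the group was wide, with 2.22 on the log2 scale between the lowest and the highest M.

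**Figure D1:**
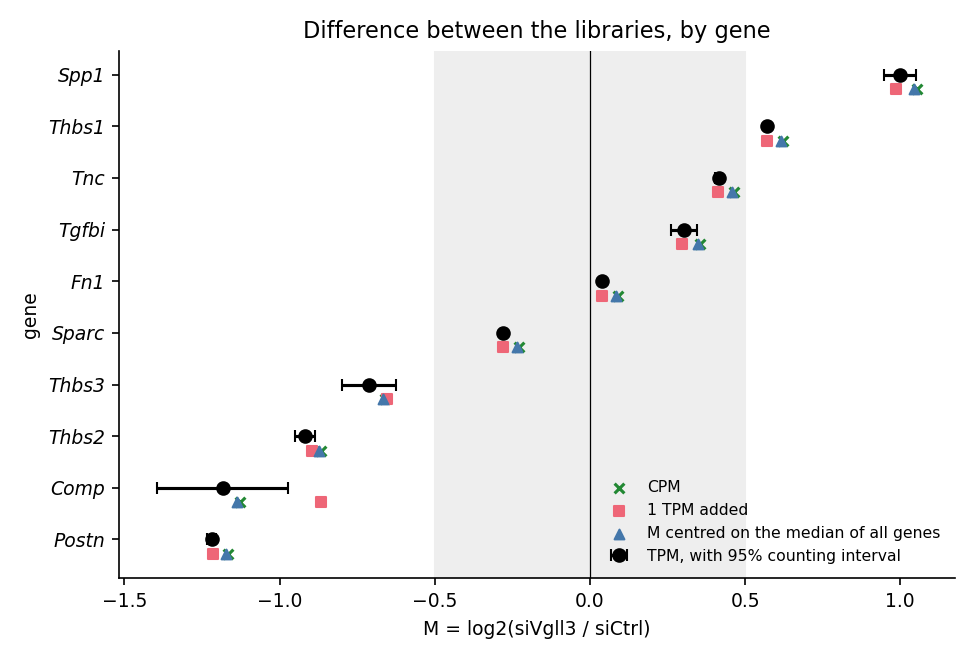
M, the log2 ratio of siVgll3 to siCtrl (horizontal axis), of the 10 matricellular genes (vertical axis), with 1 library per condition. Black points show M from TPM with its 95% counting interval, small symbols show M from CPM, with 1 TPM added and after centring on the median of all genes, and the grey band runs from −0.5 to 0.5. *Postn*, *Comp*, *Thbs2* and *Thbs3* lie left of the band and *Spp1* and *Thbs1* right of it with each symbol.

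Although single genes differed, the sum over the group hardly did. The 10 genes together made up 10372 TPM in siCtrl and 10407 TPM in siVgll3, or 1.04% of all TPM in each library. *Fn1*, *Sparc* and *Thbs1* supplied 9262 TPM of this in siCtrl and 9590 TPM in siVgll3. The other 7 genes together stood at 1110 TPM in siCtrl and 817 TPM in siVgll3, a log2 ratio of −0.44. By share of reads, which is weighted towards long transcripts, the group took 2.74% of siCtrl and 2.98% of siVgll3, a log2 ratio of 0.12 in place of 0.00485 by TPM. Part of this difference is a shift of scale, since M by TPM minus M by share of reads had a median of −0.05 over all genes.

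The levels spanned a wide range, and the ranking changed in its middle. In siCtrl the order from the top was *Fn1*, *Sparc*, *Thbs1*, *Postn*, *Tnc*, *Thbs2*, *Spp1*, *Tgfbi*, *Thbs3* and *Comp*. In siVgll3 *Tnc* stood above *Postn*, and *Spp1* and *Tgfbi* stood above *Thbs2*, while the top 3 and the last 2 kept their places. Of neighbours in these orders, *Spp1* and *Tgfbi* in siCtrl had overlapping Poisson intervals of their levels (49.8 to 52.7 TPM and 48.7 to 50.8 TPM), and all others were separated by more than counting error.

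**Figure D2:**
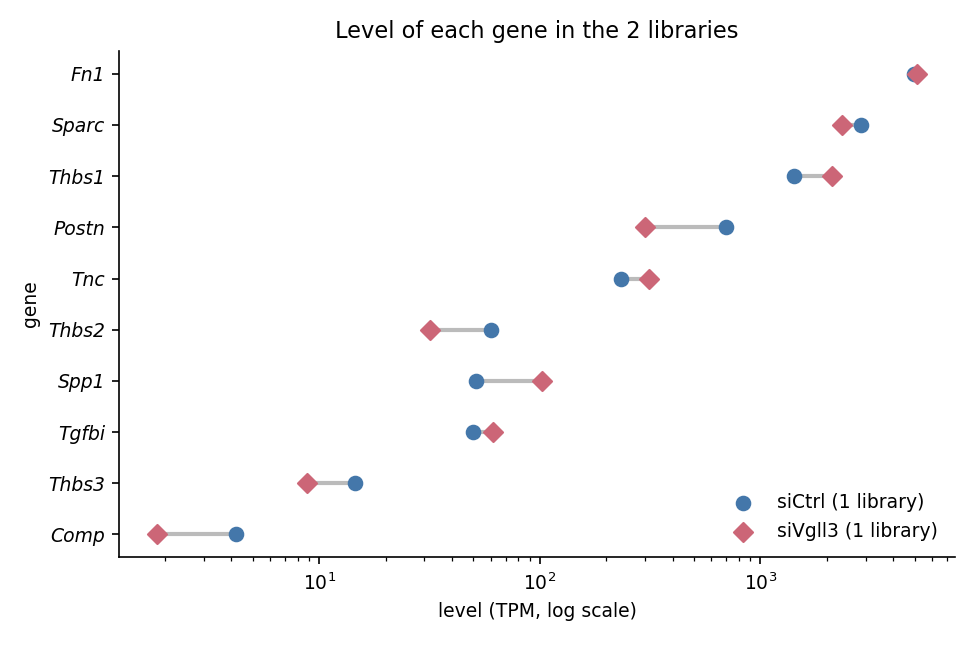
Level of each of the 10 genes (vertical axis) in TPM on a log scale (horizontal axis), with a blue circle for the siCtrl library and a red diamond for the siVgll3 library. *Postn* moved from 696 TPM to 299 TPM and lay below *Tnc* in siVgll3, while *Fn1* stood at 4977 and 5115 TPM.

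*Fn1* encodes fibronectin, the glycoprotein that cells assemble into the first matrix of a wound and that binds integrin α5β1. It lies on chromosome 1 of mm10 (GRCm38) from 71585473 to 71653280. Its 2554051 reads in siCtrl and 2431074 in siVgll3 were the most of any gene in both libraries. Per length it ranked 11 of all genes in siCtrl, at 4977 TPM, and 12 in siVgll3, at 5115 TPM. Its M was 0.04 [0.04, 0.04], a 1.03-fold higher level that exceeded counting error but was small beside the thresholds. *Col1a1*, the fibrillar collagen chain that stood close to it in siCtrl at 4918 TPM, stood at 2631 TPM in siVgll3. The ratio of *Fn1* to *Col1a1* was therefore 1.01 in siCtrl and 1.94 in siVgll3. The tables give 1 value per gene, so the spliced forms of fibronectin with extra domains, which mark wound matrix, were not separated.

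*Postn* and *Tgfbi* encode the related fasciclin-domain proteins periostin and TGFBI. Periostin binds collagen and integrins, promotes collagen cross-linking, and marks activated cardiac fibroblasts. *Postn* (chromosome 3, 54359267 to 54391041) had 140532 reads and 696 TPM in siCtrl, and 55959 reads and 299 TPM in siVgll3. This left 43.0% of the siCtrl level, and its M of −1.22 [−1.23, −1.20] was the lowest of the 10. Only 2.10% of the genes with A > 0 had an M as low as or lower than that of *Postn*. By TPM it ranked 221 of all genes in siCtrl and 545 in siVgll3. *Tgfbi* (chromosome 13, 56609586 to 56639359) stood at 49.7 TPM in siCtrl and 61.3 TPM in siVgll3, an M of 0.30 [0.26, 0.35]. Hence the pair lay on opposite sides of 0, and the ratio of *Postn* to *Tgfbi* was 14.0 in siCtrl and 4.88 in siVgll3.

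*Tnc* encodes tenascin-C, a large oligomeric glycoprotein of wounds that weakens cell adhesion to fibronectin. It lies on chromosome 4 from 63959785 to 64047015 and had 105868 reads in siCtrl and 130573 in siVgll3. Its level was 234 TPM in siCtrl and 311 TPM in siVgll3, an M of 0.41 [0.40, 0.43], below the threshold for a higher gene. *Postn* was 2.98 times as abundant as *Tnc* in siCtrl and 0.962 times as abundant in siVgll3. Periostin and tenascin-C bind each other in the matrix, and their mRNAs thus exchanged places in the order of levels.

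*Spp1*, which encodes the phosphoprotein osteopontin, had the highest M of the group. Osteopontin binds αv integrins and CD44 and is made both by fibroblasts and, in an infarct, by macrophages. *Spp1* (chromosome 5, 104435111 to 104441053) had 4656 reads and 51.3 TPM in siCtrl, and 8631 reads and 102 TPM in siVgll3. This was a 2.0-fold higher level, with an M of 1.00 [0.95, 1.05], and 98.2% of the genes with A > 0 had an M no higher than that of *Spp1*. Of 13 listed macrophage and leukocyte markers, 6 had 0 reads in both libraries, among them *Ptprc* (CD45), *Adgre1* and *Itgam* (CD11b). A count of 0 allows up to 3 reads. Summed over the list, the markers stood at 15.9 TPM in siCtrl and 9.01 TPM in siVgll3, of which *Lyz2* supplied 10.9 TPM and 3.13 TPM. Of the 4 markers with A > 0, *Lyz2* was lower, whereas *Csf1r* at 1.29 TPM in siCtrl and 1.83 TPM in siVgll3 and *Cd14* at 1.53 and 2.35 TPM were higher, with counting intervals that reached below 0.5. The part of such cells in the *Spp1* level was not tested, and in bulk RNA more cells that express a gene and more RNA per cell cannot be told apart.

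*Sparc* encodes SPARC (osteonectin), a collagen-binding protein needed for procollagen processing at the cell surface and known to strengthen the infarct scar. It lies on chromosome 11 from 55394159 to 55420080 and was covered by 482097 reads in siCtrl and 367506 in siVgll3. At 2860 TPM in siCtrl and 2356 TPM in siVgll3 it was the second of the 10 genes in both, and its M was −0.28 [−0.29, −0.27]. It was thus lower by more than counting error and short of the threshold. In absolute terms its level dropped by 504 TPM, the largest decrease of the 10, followed by *Postn*, which dropped by 397 TPM. The largest increase was that of *Thbs1*, by 694 TPM.

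The thrombospondins are multimeric calcium-binding glycoproteins. Thrombospondins 1 and 2 form trimers, carry type 1 repeats and inhibit angiogenesis, whereas thrombospondin-3 and COMP (cartilage oligomeric matrix protein, also called thrombospondin-5) form pentamers that lack those repeats. *Thbs1* (chromosome 2, 118111876 to 118127133) had 532057 reads and 1425 TPM in siCtrl, and 732062 reads and 2119 TPM in siVgll3. Its M was 0.57 [0.57, 0.58], or 1.49-fold higher, and it had the highest level of the thrombospondin genes in both libraries. *Thbs2* (chromosome 17, 14665500 to 14694262) had 22803 reads and 60.3 TPM in siCtrl, and 11174 reads and 31.9 TPM in siVgll3. Its M was −0.92 [−0.95, −0.88], and 52.9% of the siCtrl level was left. The 2 trimeric thrombospondins thus lay past opposite thresholds, with *Thbs1* 23.6 times as abundant as *Thbs2* in siCtrl and 66.4 times in siVgll3. The log2 change of this ratio was 1.49, and it lay between 1.45 and 1.53 when both counting intervals were taken at their ends.

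Both pentameric thrombospondins were lower in siVgll3 and were the least abundant of the group. *Thbs3* (chromosome 3, 89215180 to 89226841) stood at 14.5 TPM in siCtrl and 8.85 TPM in siVgll3, an M of −0.71 [−0.80, −0.62] from 2946 and 1665 reads. *Thbs3* overlaps *Mtx1*, a protein-coding gene on the opposite strand with 4392 reads in siCtrl and 3709 in siVgll3. The library kit marks strand, but the counting setting is not given in the sources used here, so the origin of part of the *Thbs3* reads is uncertain. *Comp* (chromosome 8, 70373548 to 70382066) had 651 reads in siCtrl and 266 in siVgll3. At 4.20 TPM and 1.85 TPM its M was −1.18 [−1.39, −0.97], the widest interval of the 10. Summed over these 4 genes, thrombospondin mRNA stood at 1504 TPM in siCtrl and 2162 TPM in siVgll3, so the sum followed *Thbs1*. Of the other matricellular genes, *Fn1* overlaps the antisense gene *Apol7d*, which had 6 reads in siCtrl and 2 in siVgll3, and *Tnc*, *Spp1* and *Thbs1* each overlap 1 non-coding or provisional gene that has no row in the count table.

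**Figure D3:**
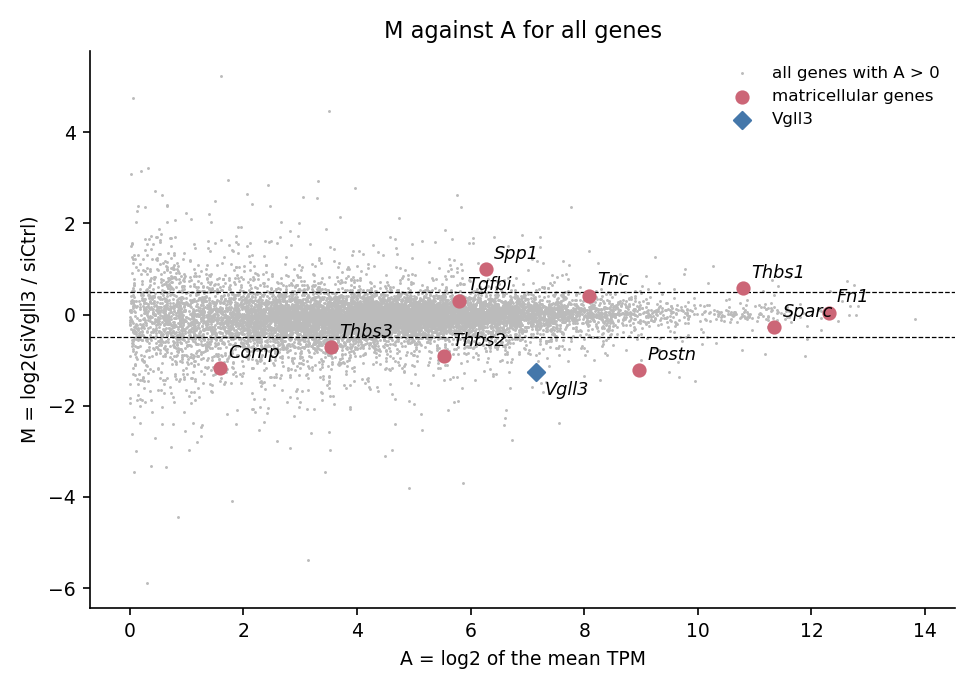
M (log2 ratio of siVgll3 to siCtrl, vertical axis) against A (log2 of the mean TPM, horizontal axis) for the 11754 genes with A > 0 in grey, the 10 matricellular genes in red and *Vgll3* in blue, with dashed lines at M of −0.5 and 0.5. *Postn* lies close to *Vgll3* in M (−1.22 and −1.27) at a higher A, and *Fn1* lies at the right end of the cloud near M = 0.

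The study asked whether the microRNA miR-29b links VGLL3 to collagen mRNA, so the 3′ UTRs of the 10 genes were searched for matches to the miR-29 seed. The mature sequences are shown with their seed (bases 2 to 8) in capitals, since all of the family share it and thus share the letters searched for. They are from RefSeq (GRCm38.p6), with miR-29a and 1 copy of miR-29b on chromosome 6 and miR-29c and the other copy of miR-29b on chromosome 1.

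mmu-miR-29a-3p: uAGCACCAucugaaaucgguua

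mmu-miR-29b-3p: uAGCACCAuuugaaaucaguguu

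mmu-miR-29c-3p: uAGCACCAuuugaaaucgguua

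A match to all 7 seed bases reads TGGTGCT in the mRNA, and none of the 10 genes holds it in the 3′ UTR of the longest-UTR transcript listed in the deposited tables. Among 11034 genes with A > 0 and such a 3′ UTR, 15.2% hold it, and 9.75% of the 7517 genes whose 3′ UTRs are within the range of lengths of the 10 genes do. The 3′ UTRs of the matricellular genes were short, with a median of 670 bases against 1109 bases for all genes. A match to bases 2 to 7 followed by an A, GGTGCTA, is held by 7.98% of the genes and by 5.24% of those in the same length range. Of the 10 genes, 1 holds it, *Sparc*, at 2 places in its 1085-base 3′ UTR. GGTGCTA was searched for after the first match had been seen to be missing. Without the A, GGTGCT is held by 33.0% of the genes and 24.1% of those in the length range. Among the 10 it is again held by *Sparc* alone, at the same 2 places. Both sites are shown on the transcript strand, in windows of 30 bases with the match to seed bases 2 to 7 in capitals. The windows are chr11:55395461-55395490 for the first and chr11:55395428-55395457 for the second, on the minus strand of GRCm38. The base number before each window is that of the first capital letter, and the window itself opens before that base.

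*Sparc* 3′ UTR from base 110: tccgcctggggataaGGTGCTaacatagat

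*Sparc* 3′ UTR from base 143: actgaatacattaacGGTGCTaaaaaaaaa

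*Sparc*, the one gene with such matches, had an M of −0.28. A relation between these matches and M was not tested. Levels of miR-29b were not measured by these libraries. By qRT-PCR, the study reported higher miR-29b and miR-29a in cardiac myofibroblasts after *Vgll3* knockdown.

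Promoters were searched next, because VGLL proteins are cofactors of TEAD factors and several matricellular genes are known TGF-β targets. For TEAD1, the study reported that knockdown of *Tead1* left fibrotic gene expression unaffected in cardiac myofibroblasts. RefSeq windows from 250 bases before to 50 after the annotated start were matched for 7 of the 10 genes, and *Fn1*, *Thbs1* and *Comp* were not searched. Both strands were read for GGAATG, the core of the TEAD site, for TGACTCA, an AP-1 site, and for CAGACA, the core of a SMAD site, and none of these letters contains another. None of the 7 genes held the TEAD letters, which 14.3% of 9363 genes with A > 0 hold in at least 1 window, and none held the AP-1 letters, which 4.48% of the genes hold. The SMAD letters were in windows of 4 of the 7 genes, *Tnc*, *Spp1*, *Sparc* and *Thbs2*, against 18.3% of all genes. Of these 4 genes, *Spp1* was higher, *Thbs2* was lower and the other two lay between the thresholds. The windows of *Spp1* and *Thbs2* are shown because these genes hold the same letters and lie past opposite thresholds, and that of *Postn* because it had the lowest M. Capitals mark CAGACA on the minus strand of the window (read as TGTCTG), and *Postn* has none. The windows are chr5:104434861-104435160 on the plus strand for *Spp1*, chr17:14694213-14694512 on the minus strand for *Thbs2* and chr3:54360857-54361156 on the plus strand for *Postn*. *Spp1* and *Postn* each have another window that is not shown, at chr5:104435942-104436241 and chr3:54359017-54359316. Neither holds any of the letters searched for, and that of *Postn* spans the gene start given above.

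*Spp1* promoter: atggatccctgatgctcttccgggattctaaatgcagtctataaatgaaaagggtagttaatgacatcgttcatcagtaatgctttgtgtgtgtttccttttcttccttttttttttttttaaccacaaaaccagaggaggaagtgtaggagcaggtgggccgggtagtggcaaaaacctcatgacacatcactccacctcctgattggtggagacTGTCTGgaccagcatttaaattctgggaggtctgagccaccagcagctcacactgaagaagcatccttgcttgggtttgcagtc

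*Thbs2* promoter: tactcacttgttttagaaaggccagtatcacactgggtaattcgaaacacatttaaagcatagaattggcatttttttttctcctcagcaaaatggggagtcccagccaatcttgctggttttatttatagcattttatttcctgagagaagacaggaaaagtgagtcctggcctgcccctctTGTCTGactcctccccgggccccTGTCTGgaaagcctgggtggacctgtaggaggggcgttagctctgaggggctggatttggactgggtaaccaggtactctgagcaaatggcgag

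*Postn* promoter: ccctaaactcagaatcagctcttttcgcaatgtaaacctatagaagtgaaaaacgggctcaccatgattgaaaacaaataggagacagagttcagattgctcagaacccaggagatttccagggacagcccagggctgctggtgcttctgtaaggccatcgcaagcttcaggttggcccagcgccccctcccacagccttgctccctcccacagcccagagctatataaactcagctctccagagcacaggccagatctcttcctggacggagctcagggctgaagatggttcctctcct

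In *Thbs2* the SMAD letters begin at 67 and 44 bases before the start, and in *Spp1* at 34 bases before it. Such matches are descriptions of the sequence, and binding was not measured here.

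Relatives of the matricellular genes were read from a list of 13 genes of the thrombospondin, tenascin, fasciclin and SPARC families, of which 5 had A > 0. Of these 5, 3 were lower and 1 was higher, beside 11.4% and 5.73% of all genes, with a median M of −0.62. Of the SPARC-like genes, 3 with A > 0 were lower, with *Smoc1* at 28.9 TPM in siCtrl and 16.8 TPM in siVgll3 (M −0.79), *Smoc2* at 36.9 and 23.9 TPM (M −0.62) and *Sparcl1* at 2.50 and 1.27 TPM (M −0.97). *Fstl1*, a secreted follistatin-like glycoprotein of the heart, was the most abundant at 1857 TPM in siCtrl and 1318 TPM in siVgll3, with an M of −0.49. The higher gene was *Tnxb*, which encodes tenascin-X, at 1.72 TPM in siCtrl and 4.97 TPM in siVgll3 and an M of 1.53 [1.42, 1.63]. Among genes with A below 0, *Thbs4* had 11 reads in siCtrl and 20 in siVgll3 and the SPARC-family gene *Spock2* had 15 and 28, and the tenascin genes *Tnr* and *Tnn* had 0 reads in both libraries.

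Of 25 other matricellular and adhesive glycoprotein genes, 19 had A > 0. Of these 19, 4 were lower and 3 were higher, beside 11.4% and 5.73% of all genes, and their median M was −0.01. The most abundant, galectin-1 (*Lgals1*), stood at 7092 TPM in siCtrl and 7076 TPM in siVgll3. *Ctgf*, the connective tissue growth factor gene, stood at 1467 and 1481 TPM (M 0.01), and *Fbln2*, encoding fibulin-2, at 2001 and 2327 TPM (M 0.22). The lowest M was that of *Mgp*, the gene of the calcification inhibitor matrix Gla protein, at 1457 TPM in siCtrl and 528 TPM in siVgll3 (M −1.46). The highest was that of *Lgals3*, encoding galectin-3, at 40.0 TPM in siCtrl and 131 TPM in siVgll3 (M 1.71 [1.65, 1.76]). These genes therefore lay on both sides of 0, as the 10 matricellular genes did.

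Of 10 integrin subunit genes with A > 0 that take part in binding these proteins, 3 were lower and 1 was higher, with a median M of −0.25. Over all genes, 11.4% were lower and 5.73% higher. *Itgb1*, the β1 subunit, stood at 1101 TPM in siCtrl and 1004 TPM in siVgll3 (M −0.13), *Itgb5* at 441 and 328 TPM (M −0.43) and *Itgav* at 217 and 215 TPM (M −0.01). The higher gene was *Itga5*, whose product pairs with β1 as the fibronectin receptor, at 135 TPM in siCtrl and 210 TPM in siVgll3 (M 0.64). The lowest was *Itga9*, encoding a subunit that binds tenascin-C and osteopontin, at 25.3 and 14.7 TPM (M −0.78). Of 9 other receptor genes with A > 0, none was lower and none was higher, and their M ran from −0.44 for the syndecan *Sdc4* to 0.41 for *Cacna2d1*, a calcium channel subunit that binds thrombospondins. The others named were *Calr* at 2625 TPM in siCtrl and 2173 TPM in siVgll3, and *Sdc2* at 215 and 192 TPM.

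Of 30 genes with A > 0 for the assembly, cross-linking and cleavage of this matrix, 13 were lower and 1 was higher, beside 11.4% and 5.73% of all genes. Their median M was −0.40, against −0.05 for all genes. *Bgn*, encoding the proteoglycan biglycan, stood at 5155 TPM in siCtrl and 4065 TPM in siVgll3 (M −0.34), and the collagen genes *Col1a1* and *Col1a2* had M of −0.90 and −0.53. The protease gene *Adamts12*, whose product is known to cleave COMP, had the lowest M, −1.18, at 31.6 TPM and 14.0 TPM. *Htra1*, encoding a secreted serine protease that cleaves fibronectin, was the higher one at 133 TPM and 234 TPM (M 0.81).

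In the list of 16 TGF-β ligand, receptor and SMAD pathway genes, 4 were lower and 1 was higher, beside 11.4% and 5.73% of all genes. Their median M was −0.16, against −0.05 for all genes. *Tgfb3* stood at 153 TPM in siCtrl and 92.4 TPM in siVgll3 (M −0.73), and the inhibitor gene *Ski* at 113 and 96.3 TPM (M −0.23).

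**Figure D4:**
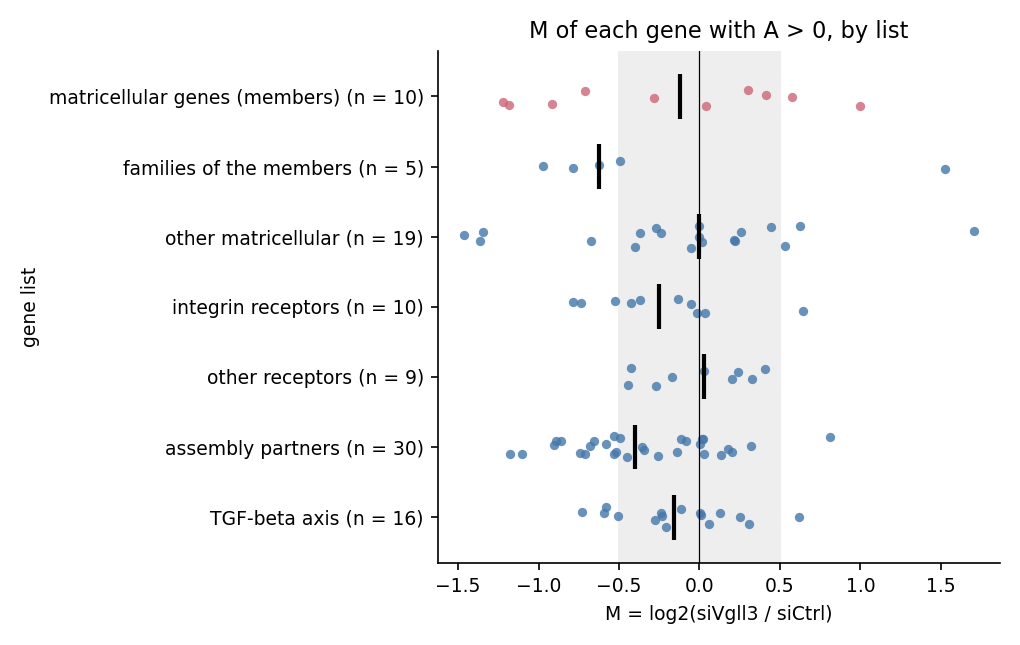
M (log2 ratio of siVgll3 to siCtrl, horizontal axis) of each gene with A > 0 in 7 lists (vertical axis), with 1 point per gene, black bars at the list medians and a grey band from −0.5 to 0.5. The 10 matricellular genes spread to both sides of the band around a median of −0.12, while the assembly partners centre at −0.40.

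Markers of other cells that such a culture could hold were read from further lists. Endothelial markers summed to 27.3 TPM in siCtrl and 24.0 TPM in siVgll3, of which *Tek* supplied 19.5 and 13.4 TPM. Of the 4 with A > 0, *Tek* was lower (M −0.54 [−0.60, −0.48]) and 3 lay between the thresholds. These 3 were *Cdh5* at 2.13 and 3.01 TPM, *Pecam1* at 1.89 and 2.61 TPM and *Emcn* at 2.72 and 2.68 TPM. Among those with A below 0, *Cldn5* had 11 reads in siCtrl and 94 in siVgll3, and *Vwf* had 108 and 70. Mural markers summed to 119 and 84.1 TPM, of which *Smtn* supplied 95.1 and 71.5 TPM. Of the 3 mural markers with A > 0, *Notch3* at 14.1 and 7.97 TPM and *Des* at 7.22 and 3.11 TPM were lower. Of 9 cardiomyocyte markers, 7 had 0 reads in both libraries, *Myh6* and *Actc1* among them. The one with A > 0, *Tnnt2*, stood at 60.0 TPM in siCtrl and 10.4 TPM in siVgll3, an M of −2.53 that was lower than that of any of the 10 matricellular genes. *Smtn* and *Tnnt2* were thus more abundant in siCtrl than *Spp1*, *Tgfbi*, *Thbs3* and *Comp*. The part of these cells in the values of the matricellular genes was not tested.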

How the data were processed

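Poly-A RNA libraries of siCtrl and siVgll3 myofibroblasts (TruSeq Stranded mRNA LT kit, Illumina NovaSeq) were used, 1 per condition. Per the study and the submitters' processing notes, reads were checked (FastQC), trimmed (Trimmomatic), aligned to mm10 (HISAT2) and assigned to known genes (StringTie). Tool versions and the annotation release are not given in the sources used here. The authors deposited raw counts of reads per gene, without normalization, and TPM per gene, scaled for gene length and library size. From the deposited TPM, M and A were computed with nothing added, and the counting intervals (95%) came from the counts, with SciPy 1.17.1. The depth was 140815237 and 125789276 reads. No model was fitted, and edgeR 4.0.16 and DESeq2 1.42.0 gave scaling factors only. Other values tried were CPM, TMM and DESeq2 scaling, 0.1 or 1 TPM added, centring, and other filters and thresholds.

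The 10 genes, the gene lists and the motifs were chosen with earlier results of these data known. Besides the 10 genes and *Vgll3*, the genes named are the 3 with the largest mean TPM and those with the lowest and the highest M of each list other than the marker lists. Genes of the marker lists are named in the check of the cell types, without such a rule. *Thbs4*, *Spock2*, *Tnr* and *Tnn* were named after their values were seen. Gene positions and promoters are from RefSeq (GRCm38.p6, the assembly of mm10), and 3′ UTRs and overlaps from GENCODE vM21. Protein sequences were not used here. A gene of the TGF-β list that the rule would name is not reported here. The interval was tested on simulated counts that held Poisson error only, as the interval itself assumes. That test therefore says nothing about differences between cultures.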

Additional observations from a re-analysis of the deposited data

Results flagged for a closer look

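In all, 6 listed genes, chosen for their relation to the matricellular genes or as markers, had more reads in 1 library than the 3 that a count of 0 allows, but lie outside the TPM tables. *Itgb6* had 35 reads in siCtrl and 38 in siVgll3. *Dmp1* had 12 and 0 reads and *Vtn* 8 and 0 reads, and the markers *Kcnj8*, *Tnni3* and *C1qa* had 0 reads in siCtrl and 24, 10 and 7 in siVgll3. All 10 matricellular genes are in both the count table and the TPM tables.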

How the results depend on the processing

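No paired analysis was possible because siCtrl and siVgll3 are single libraries, and for the same reason no replicate could be left out. Over the 6 alternatives that change the values, 60 values of M were computed for the 10 genes, of which 0 changed sign and 29 lay outside the counting interval of the value reported. The largest shift was that of *Comp*, from −1.18 to −0.87 with 1 TPM added. The 4 lower and 2 higher genes were counted under each alternative at the threshold of 0.5, except that a filter of A > 2 leaves out *Comp* and gives 3 lower genes. A threshold of 1 on M gave 2 lower and 0 higher genes. The median M of −0.12 was −0.0686 with CPM, −0.0765 with TMM, −0.0794 with the size factors of DESeq2 and −0.0751 after centring. The log2 ratio of the summed level was 0.00485 by TPM and 0.12 by CPM, where long transcripts such as that of *Fn1* weigh more. Part of this difference is a shift of scale between the measures. M by TPM minus M by CPM had a median of −0.05 over all genes with A > 0. For the 10 genes it ran from −0.0543 to −0.0509. Over all genes, leaving out the filter on A gave 2103 genes below −0.5 and 1428 above 0.5, in place of 1341 and 674. The threshold of 1 gave 384 and 207. Higher genes numbered 393 with A > 2, 1159 with at least 10 reads in each library and 442 with the whole counting interval above 0.5. Depth limits *Comp* most, with 651 and 266 reads.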

Other observations

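*Tnnt2*, the cardiac troponin T gene, had an M of −2.53 [−2.64, −2.42], whereas the cardiomyocyte markers *Myh6*, *Myh7*, *Actc1*, *Ryr2*, *Myl2*, *Myl7* and *Nppa* had 0 reads in both libraries, which allows up to 3 reads. Genes of the contractile apparatus lay on both sides of 0. *Cnn1* (calponin) stood at 44.0 TPM in siCtrl and 96.6 TPM in siVgll3 and *Tagln* (SM22α) at 1864 and 2680 TPM, and *Acta2* had an M of 0.23. *Smtn*, *Des* and *Myh11* had M of −0.41, −1.21 and −1.43, the last at A below 0. *Fap*, the fibroblast activation protein gene, stood at 9.03 TPM in siCtrl and 3.61 TPM in siVgll3. Of the 13 myofibroblast and fibroblast markers, 6 were lower and 3 were higher, against 11.4% and 5.73% of all genes.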
